A study of Mus musculus with 7 samples.

Results

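Untransduced mouse embryonic fibroblasts (MEF) were compared with untransduced primary mouse cerebral pericytes (PC), gene by gene and in both directions. Both come from a study in which such cells were the donors for conversion to oligodendrocyte progenitors with Olig2, Sox10 and Nkx6.2, so the comparison gives the difference between the donors before any factor was added. The comparison takes every cell barcode of these libraries that held 500 or more unique molecular identifiers (UMIs, the tags that mark single captured transcripts), which gave 421 of the 1124 such cells in the series. MEF, labelled as from embryo and grown in MEF medium, gave 131 cells. PC, labelled as from brain and grown in pericyte medium, gave 290 cells. Both groups were C57BL/6, had the treatment label None, and were kept at 37 °C and 5% CO2, loosened with trypsin-EDTA and captured in droplets on the ddSEQ system for 3′ counting. The embryonic stage, the age and sex of the animals, how many were pooled and the number of passages are not given in the sources used here. Medium, tissue, age and library differ together between the groups and cannot be told apart.

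Fibroblasts lay down and remodel the collagen and fibronectin matrix of connective tissue, and in culture on stiff plastic they often take on smooth muscle actin and other contractile proteins, the myofibroblast state. Pericytes are the mural cells wrapped around capillaries. They are held to the endothelium by the growth factor receptor PDGFRB and are known in brain for their part in the blood-brain barrier. In tissue they carry markers such as Rgs5, Kcnj8, Abcc9 and Vtn, several of which are easily lost in culture.

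Each group is 1 library, so no test between groups was possible and no p-value is given. Levels are UMIs summed over the cells of a library scaled to a library total of 1000000 (CPM), with exact Poisson 95% intervals in parentheses. Ratios carry exact 95% intervals conditional on both counts, and neither kind of interval holds the variation from cell to cell or culture to culture. A gene was measured when 1 of the 2 libraries held at least 20 CPM and 10 UMIs. It was called higher in a library when the ratio was 2-fold or more and its interval excluded 1, and a large difference was 4-fold or more with the interval wholly beyond 2-fold. A count of 0 was set at 3 UMIs, equal to 3.8 CPM in MEF and 2.32 CPM in PC, and such a ratio is given as "at least". The libraries held 789954 (MEF) and 1292885 (PC) UMIs, with a median per cell of 4656 and 3775, and shared 0 cell barcodes. The deposited values are not UMI counts as they stand and were decoded, so every level rests on that reading. A gene with no row in a library's file was taken as 0 UMIs there.

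The PC matrix joins 2 runs of barcodes, here called blocks, of 39 and 251 cells, and the labels do not say what they are. They were not used as replicates. Set against each other, 297 (4.21%) of 7054 measured genes were called higher in the first block and 328 (4.65%) in the second, with 36 (0.51%) large differences. In MEF 4 of 131 cells held UMIs of 3 or more of 12 macrophage markers. They held 96% of that library's 329 macrophage marker UMIs and 1.32% of all its UMIs, against 0 such cells in PC.

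The labels were checked against defining markers. Of 13 measured fibroblast markers 10 were higher in MEF and 2 in PC, with 4814 and 599 CPM in MEF and PC for Col1a1, 2090.0 and 184 CPM for Col3a1 and 161 and 0 CPM for Dcn (decorin, a collagen-binding proteoglycan). Dcn had a UMI in only 17 of 131 MEF cells, against 121 for Col1a1. The fibroblast markers higher in PC were Pdgfra (8.86 and 88.2 CPM) and S100a4 (83.5 and 2323 CPM), and podoplanin (Pdpn, 53.2 and 48 CPM) was not called. PC had Pdgfrb, the PDGF receptor of mural cells, at 343 CPM against 213 CPM in MEF, a difference that fell short of the 2-fold call. Rgs5, Kcnj8, Abcc9, Higd1b and Vtn, which define brain pericytes in tissue, had 0 UMIs in PC, and the label was not borne out by them. Endothelial Cdh5 and Cldn5, astrocytic Gfap and Aqp4, and neuronal Snap25 and Rbfox3 had no row in either file. The endothelial VEGF receptors Flt1 (114 and 234 CPM in MEF and PC) and Kdr (5.06 and 24 CPM), the measured members of that list, were higher in PC, though not against the first block alone, and Flt1 had a UMI in 128 of 290 PC cells. Emcn and Plvap had 10 and 6 UMIs in PC and 0 in MEF. Sox9, on the astrocyte and the cartilage lists, was at 58.2 and 442 CPM in MEF and PC. Of 10 neuron markers 3 were measured, 2 of them higher in MEF and 0 in PC. A UMI of the neuron list was found in 64 of 131 MEF cells and 46 of 290 PC cells. Of 16 meningeal fibroblast markers 12 had 0 UMIs in PC, Ptgds and Slc6a13 among them.

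The libraries differed widely. Of 8122 measured genes, 1292 (15.9%) were called higher in MEF and 1663 (20.5%) in PC. Large differences numbered 603 (7.42%) toward MEF and 455 (5.6%) toward PC. The genes with large differences toward MEF took 12.5% of UMIs in MEF and 0.998% in PC, and those toward PC took 7.87% in PC and 1.03% in MEF. A further way to read the same contrast is presence, since 153 measured genes had 0 UMIs in PC and 49 had 0 in MEF. The median log2 ratio of MEF over PC was -0.16 over all measured genes, to which the medians of gene lists below are to be compared. Shares of a list, given for MEF and then PC unless said otherwise, are to be compared with the 15.9% and 20.5% above. Against the separate PC blocks, 1247 of the 1292 genes and 1618 of the 1663 kept the same direction against both, while 716 and 749 kept the call itself against both. The calls came from the sum of these blocks and the same MEF counts, so such agreement is not independent support. The second block alone holds 1133070 of the 1292885 PC UMIs. Against the first block alone, which holds few cells, 752 and 819 were called the same way. Of the genes named below, Col6a1, Col5a3, Loxl3, Hspg2, Tgfb1, Tgfbr3, Cyr61, Ctgf, Notch3, Foxf2, Ano1, Gata2, Twist2, Dkk2, Vegfc, Ccne1 and Il1rl1 were not called against the first block alone, and Col6a2 and Twist1 not against the second.

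**Figure D1:**
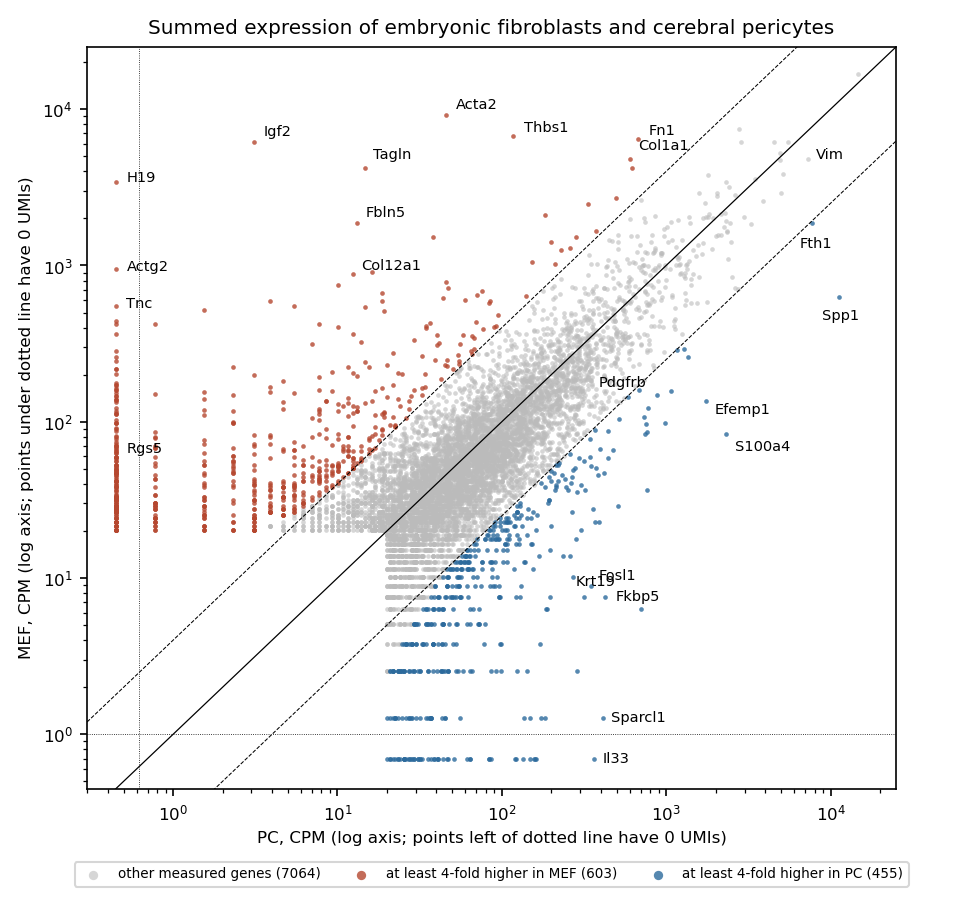
Level of each of 8122 measured genes in PC (horizontal) and MEF (vertical), in CPM on log axes, with genes at 0 UMIs drawn beyond the dotted lines. The solid line marks equal levels and the dashed lines 4-fold. H19, Actg2 and Tnc lie at 0 in PC and Il33 at 0 in MEF, while Pdgfrb and Vim lie between the dashed lines, on the PC side.

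Among genes at 100 CPM or more, the 15 highest ratios toward MEF, ranked on the log2 ratio with 0.5 UMIs added to each count, included an imprinted pair, smooth muscle proteins and matrix proteins. H19, a maternally expressed noncoding RNA, stood at 3404 CPM (3277 to 3535) in MEF and 0 UMIs in PC, and so was at least 1467-fold higher. Igf2, the fetal insulin-like growth factor encoded beside it, stood at 6124 CPM (5953 to 6299) in MEF and 3.09 CPM (0.843 to 7.92) in PC, 1979.5-fold (773 to 7268) apart. On the log2 scale its ratio was 10.78, and it was 9.22 with equal weight per cell, 8.79 with thinned cells, 9.24 without cells that held Krt19, Krt20 or Msln and 9.39 without cells that held Mki67 or Top2a. The others were Actg2, Tnc, Cnn1, Igfbp2, Aspn, Igfbp5, Meg3, Mfap4, Itga11, Lyz2, Itm2a, Slit2 and Tenm3, each with 0 UMIs in PC and between 172 (Tenm3, a teneurin adhesion protein) and 949 CPM (Actg2, enteric smooth muscle actin) in MEF. The order depends on that added count: with absence set at 3 UMIs Tenm3 was at least 74.2-fold and Lyz2 at least 93.3-fold higher, below Tagln (288-fold (184 to 478)) and Acta2 (202-fold (156 to 265)), which are not among the 15. Lyz2, the macrophage lysozyme, came from few cells: 170 of its 171 UMIs lay in the 4 cells with macrophage markers, and without them it fell below the measured level.

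The 15 highest ratios toward PC on the same scale included a cytokine, neuronal surface proteins and epithelial genes. Il33, an alarmin of the interleukin-1 family, was at 0 UMIs in MEF and 366 CPM (334 to 400.4) in PC. It had a UMI in 70 of 290 PC cells. Fkbp5, a co-chaperone induced by glucocorticoids, was at 7.6 CPM (2.79 to 16.5) in MEF and 426 CPM (391 to 463) in PC. Sparcl1, the matrix protein hevin, was at 1.27 CPM (0.032 to 7.05) in MEF and 412 CPM (378 to 449) in PC, its single MEF UMI giving a ratio of 326-fold (58.2 to 12887). Also among them were Gda (guanine deaminase), Nptx1 (a neuronal pentraxin), Gfra2 (the neurturin receptor), Msln (mesothelin), Nrn1 (neuritin), Klra4, Emilin2, Ptgs1 (cyclooxygenase-1), Krt20 and Aldh1a1, at 121 (Klra4) to 288 CPM (Ptgs1) in PC and at most 2 UMIs in MEF.

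Contractile genes were higher in MEF. Of 25 genes 23 were measured, 15 were called higher in MEF and 0 in PC, against 15.9% and 20.5% of all measured genes, and the median log2 ratio was 2.46. Acta2, smooth muscle alpha-actin, was at 9202 CPM (8991 to 9416) in MEF and 45.6 CPM (34.7 to 58.9) in PC, 202-fold (156 to 265) higher in MEF. It had a UMI in 128 of 131 MEF cells and 43 of 290 PC cells. Thinned to 1000 UMIs, which evens out depth in the 129 MEF and 267 PC cells deep enough, MEF cells held a median of 6 Acta2 UMIs and up to 63, and PC cells a median of 0 and up to 4. Tagln, the actin-binding protein transgelin, was at 4228 CPM (4086 to 4374) in MEF and 14.7 CPM (8.85 to 22.9) in PC. Myh11, the smooth muscle myosin heavy chain, Cnn1 (calponin 1), Lmod1 (leiomodin 1) and Actg2 had 0 UMIs in PC and 153, 443, 97.5 and 949 CPM in MEF, and desmin (Des) was at 30.4 and 0.773 CPM in MEF and PC. The regulatory light chain Myl9 (1510.2 and 37.9 CPM in MEF and PC), the nonmuscle myosin Myh10 (430.4 and 36.4 CPM) and tropomyosins Tpm1 (2713 and 493 CPM) and Tpm2 (1052 and 152 CPM) followed. Not every smooth muscle marker differed in level, since smoothelin (Smtn) was at 70.9 and 71.2 CPM and was not called. General cytoskeletal members that were not called included vimentin (4766 and 7284 CPM), Tpm4 (1094 and 1181 CPM), the nonmuscle myosin Myh9 (613 and 402 CPM) and calponins Cnn2 (987 and 776 CPM) and Cnn3 (689 and 744 CPM).

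Serum response factor binds the CArG box and is known to drive smooth muscle genes together with myocardin-family cofactors. An exact search of both strands for the CArG box (CC, 6 of A or T, GG) found it in 3 of the 21 contractile genes with a RefSeq promoter entry of 250 bases before to 50 after the start (Myl9, Cnn2 and Vcl) and in 535 of 32851 such promoters (1.63%). The promoters of Myl9 and Cnn2 are shown because they carry the same kind of motif in genes that differ here: Myl9 was 39.8-fold (29.9 to 54.2) higher in MEF, while Cnn2 stood at 987 and 776 CPM in MEF and PC. Capitals mark the motif, on the plus strand of GRCm38.p6, 161 bases before the start site in Myl9 (chr2:156775214-156775513) and 56 bases before it in Cnn2 (chr10:79988350-79988649).
Myl9: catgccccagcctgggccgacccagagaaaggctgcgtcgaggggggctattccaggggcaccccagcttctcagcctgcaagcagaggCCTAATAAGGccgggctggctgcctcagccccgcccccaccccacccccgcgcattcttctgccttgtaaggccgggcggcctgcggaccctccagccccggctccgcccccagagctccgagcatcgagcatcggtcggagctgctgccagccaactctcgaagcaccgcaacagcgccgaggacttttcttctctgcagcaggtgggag
Cnn2: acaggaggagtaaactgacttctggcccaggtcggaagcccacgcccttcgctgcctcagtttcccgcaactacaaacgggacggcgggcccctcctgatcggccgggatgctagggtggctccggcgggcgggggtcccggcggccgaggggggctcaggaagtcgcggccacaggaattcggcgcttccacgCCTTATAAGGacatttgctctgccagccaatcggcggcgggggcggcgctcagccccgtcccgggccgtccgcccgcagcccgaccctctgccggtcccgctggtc
A match describes letters in these windows only; binding was not measured.

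Matrix genes were higher in MEF more often than genes at large. Of 27 measured genes for fibrillar collagens and their crosslinking, 17 (63%) were higher in MEF and 5 (18.5%) in PC (median 1.48). Of all measured genes 15.9% and 20.5% were so called, so the share toward PC was near that of all genes. Col1a1, a chain of type I collagen, was at 4814 CPM (4662 to 4969.7) in MEF and 599 CPM (558 to 643) in PC, 8.03-fold (7.43 to 8.69) higher in MEF, and its partner chain Col1a2 at 7435 CPM (7246 to 7627) in MEF and 2791 CPM (2701 to 2884) in PC, 2.66-fold (2.55 to 2.78). Collagens of embryonic and tendon-like matrix differed more, with Col12a1 at 882 and 12.4 CPM in MEF and PC, Col11a1 at 616 and 44.1 CPM and Col3a1 at 2090.0 and 184 CPM. The crosslinking enzymes Lox (2474 and 333 CPM) and Loxl1 (604 and 59.6 CPM) and the lysyl hydroxylase Plod2 (354 and 65.7 CPM) were called higher in MEF as well. Type VI collagen went the other way in its measured chains: Col6a3 was at 157 CPM (131 to 187) in MEF and 1076 CPM (1020.1 to 1134) in PC, 6.85-fold (5.7 to 8.3) higher in PC, and Col6a1 and Col6a2 were 2.1-fold (1.81 to 2.45) and 2.02-fold (1.65 to 2.49) higher. Col5a3 (19 and 51.8 CPM) and the crosslinking enzyme Loxl3 (153 and 310.2 CPM) were the other members higher in PC. All 27 genes had UMIs in both libraries, so these are differences in level. Col14a1, which sits on the surface of collagen fibrils, was at 76 and 1.55 CPM in MEF and PC. Serpinh1, the collagen chaperone HSP47, was at 2923 and 1579 CPM and was not called.

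Small proteoglycans and elastic fibre genes had a median log2 ratio of 4.23 over 21 measured members, 14 higher in MEF and 1 in PC (66.7% and 4.76%). Dcn, Fmod (fibromodulin), Aspn (asporin) and Mfap4 had 0 UMIs in PC, and Fbn2, the fetal fibrillin, was at 518 CPM (469 to 570.4) in MEF and 1.55 CPM (0.187 to 5.59) in PC. Fbln5, which guides elastic fibre assembly, was at 1863 and 13.1 CPM, 142-fold (88.2 to 244) higher in MEF. The exception was its relative Efemp1 (fibulin 3), at 135 CPM (111 to 164) in MEF and 1757 CPM (1686 to 1831) in PC, 13-fold (10.7 to 15.9) higher in PC. Biglycan (Bgn, 1634 and 2329 CPM), fibulin 2 (Fbln2, 1884 and 1069.7 CPM) and versican (Vcan, 222 and 303 CPM) were not called. The median was 2.43 with no CPM minimum and 2.58 without cells that held Krt19, Krt20 or Msln, its direction being the same.

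Matricellular and adhesive glycoproteins were higher in MEF with few exceptions. Of 16 measured, 12 were higher in MEF and 2 in PC (75% and 12.5%, median 4.21, or 3.66 with absent genes at their bound). Fibronectin (Fn1) was at 6417 CPM (6241 to 6596) in MEF and 676 CPM (632 to 722) in PC, 9.49-fold (8.83 to 10.2) higher in MEF, and thrombospondin 1 (Thbs1) at 6727 CPM (6547 to 6910.3) in MEF and 118 CPM (99.6 to 138) in PC, 57.2-fold (48.7 to 67.7). Tenascin C (Tnc), Wisp2, Smoc1 and Smoc2 had 0 UMIs in PC, and periostin (Postn) was at 753 and 10.1 CPM in MEF and PC. Spp1, osteopontin, was at 624 CPM (570.2 to 682) in MEF and 11278 CPM (11096 to 11462) in PC, 18.1-fold (16.5 to 19.8) higher in PC, and Matn2 (matrilin 2) was at 16.5 and 47.2 CPM in MEF and PC. After actin Actb, Spp1 was the most abundant gene of the PC library. In cells thinned to 1000 UMIs Spp1 had a median of 0 UMIs in MEF cells and 9 in PC cells, with the highest at 15 and 88.

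Of 16 measured basement membrane genes 7 were higher in MEF and 3 in PC (median 0.52), which is 43.8% and 18.8% against 15.9% and 20.5% of all measured genes. The type IV collagen chains Col4a1 (1829 and 3301 CPM) and Col4a2 (1130.5 and 1197 CPM), the core of every basement membrane, were not called, and nidogen 1 (Nid1) was 2.68-fold (2.42 to 2.97) higher in PC. Higher in MEF were perlecan (Hspg2, 633 and 210.4 CPM in MEF and PC), the laminin chains Lama5 (124 and 13.1 CPM) and Lama4 (53.2 and 9.28 CPM), nidogen 2 (Nid2, 30.4 and 0 CPM) and agrin (Agrn, 105 and 6.96 CPM). Sparc, a collagen-binding glycoprotein, was at 6135 CPM (5963 to 6309.7) in MEF and 2845 CPM (2754 to 2938) in PC, 2.16-fold (2.07 to 2.25) higher in MEF. Of 21 measured proteases and inhibitors 7 were higher in MEF and 3 in PC (33.3% and 14.3%, median 0.43). Serpinb2, an inhibitor of plasminogen activators, was at 0 UMIs in MEF and 64.2 CPM (51.1 to 79.6) in PC. Without the cells that held Krt19, Krt20 or Msln, Serpinb2 was no longer measured. The metalloprotease Mmp23 was 43.1-fold (14.2 to 213) and the protease inhibitor Serpine2 9.1-fold (7.33 to 11.4) higher in MEF. The gelatinase Mmp2 (724 and 573 CPM), its activator Mmp14 (387 and 287 CPM) and the inhibitors Timp1 (667 and 359.7 CPM) and Timp2 (1574 and 2073 CPM) were not called.

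**Figure D2:**
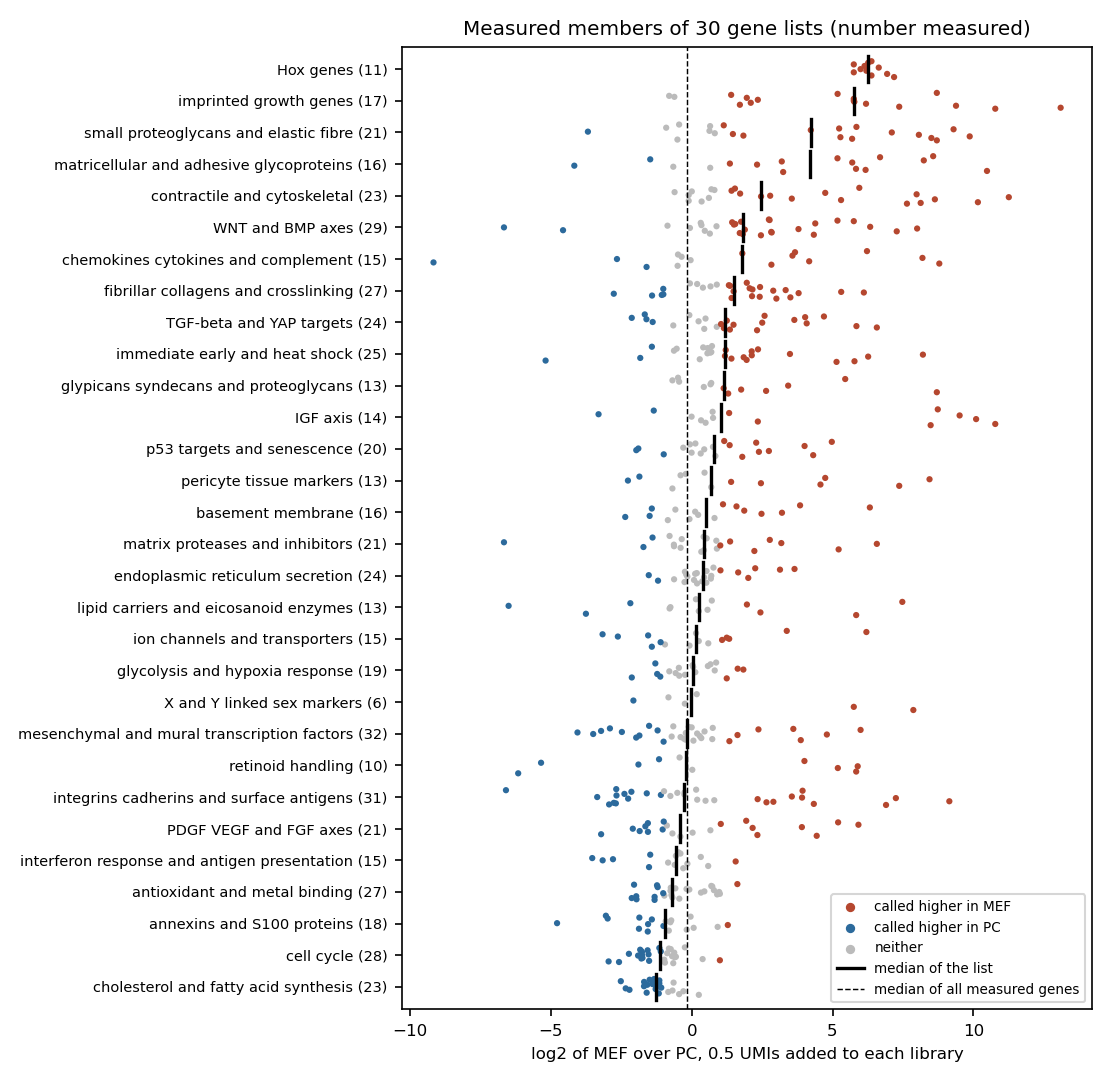
Log2 ratio of MEF over PC for each measured member of 30 gene lists, ordered by the median of the list (black bar), with the median of all measured genes (-0.16) as the dashed line. Hox, imprinted, elastic fibre, matricellular and contractile lists lie furthest toward MEF, and the cholesterol and cell cycle lists furthest toward PC.

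A list of TGF-beta and YAP targets, with TGF-beta ligands and receptors, was mostly higher in MEF, 14 of 24 measured against 4 in PC (median 1.19). These are 58.3% and 16.7%, against 15.9% and 20.5% of all measured genes. The ligands differed among themselves: Tgfb3 was at 510.2 CPM (462 to 562) in MEF and 19.3 CPM (12.5 to 28.5) in PC and Tgfb2 at 157 and 9.28 CPM in MEF and PC, both higher in MEF, whereas Tgfb1 was at 6.33 and 30.2 CPM, 4.77-fold (1.88 to 15.5) higher in PC. The receptors also differed, with Tgfbr1 6.22-fold (3.04 to 14) higher in MEF, Tgfbr3 3.33-fold (1.62 to 7.7) higher in PC, and Tgfbr2 (93.7 and 99.8 CPM) not called. Among targets, Pmepa1 was 17.1-fold (13 to 22.7), Ltbp2 64.6-fold (24.8 to 240.2) and the YAP targets Cyr61 and Ctgf 4.99-fold (4.41 to 5.67) and 2.56-fold (2.35 to 2.77) higher in MEF. Axl, a receptor kinase also counted as a YAP target, was 2.63-fold (2.27 to 3.04) higher in PC. Ankrd1, another such target, was not called (135 and 99.8 CPM) and stood at 319 and 68.8 CPM in the PC blocks.

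Pericyte tissue markers did not separate the libraries toward PC. Of 13 measured, 6 were higher in MEF and 2 in PC (median 0.69). These are 46.2% and 15.4%, against 15.9% and 20.5% of all measured genes, so the share toward PC was near that of all genes. Pdgfrb, at 213 CPM (182 to 247) in MEF and 343 CPM (312 to 377) in PC, and Cspg4 (the NG2 proteoglycan), at 89.9 CPM (70.2 to 113) in MEF and 55.7 CPM (43.6 to 70.1) in PC, were not called. Without cells that held Krt19, Krt20 or Msln, Pdgfrb was called higher in PC, at a log2 ratio of -1.13. Mcam (CD146) was at 192 CPM (163 to 226) in MEF and 7.73 CPM (3.71 to 14.2) in PC, 24.9-fold (13.2 to 52.9) higher in MEF, and Notch3, the mural Notch receptor, was 5.73-fold (2.54 to 14.5) higher. Rgs5 was at 63.3 CPM (47 to 83.4) in MEF and 0 UMIs in PC, but its 50 MEF UMIs came from 15 cells and 34% of them from 1 cell. Rgs4, a further regulator of G-protein signalling, had 0 UMIs in PC and 134 CPM in MEF. The 2 members higher in PC were the brain pericyte factor Foxf2 (11.4 and 43.3 CPM in MEF and PC) and the chloride channel Ano1 (5.06 and 27.1 CPM). Foxc1 (123 and 162 CPM), Tbx18 (17.7 and 20.9 CPM) and Zic1 (31.6 and 23.2 CPM) were not called.

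**Figure D3:**
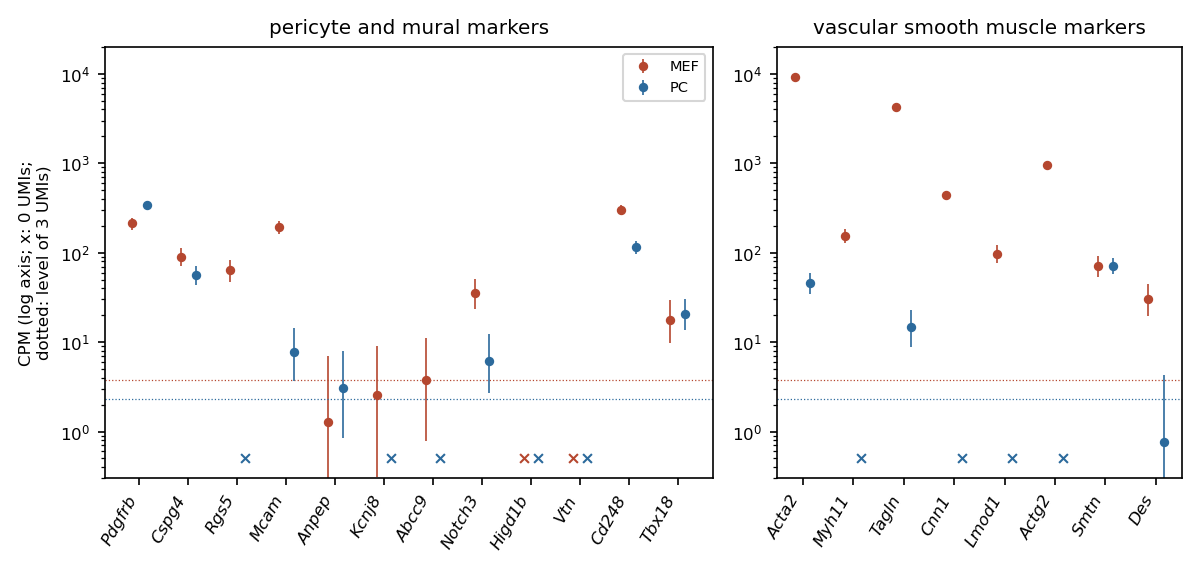
Level in CPM, on a log axis, of 12 pericyte and mural markers (left) and 8 vascular smooth muscle markers (right) in MEF and PC, with exact Poisson 95% intervals, crosses for 0 UMIs and dotted lines at the level of 3 UMIs. Pdgfrb, Cspg4 and Tbx18 differ by less than 2-fold, whereas Rgs5, Myh11, Cnn1, Lmod1 and Actg2 are at 0 in PC.

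Imprinted genes that act on fetal growth were higher in MEF almost throughout. Of 17 measured, 15 were higher in MEF and 0 in PC (88.2% and 0%, against 15.9% and 20.5% of all measured genes). The median log2 ratio was 5.76 (3.13 with absent genes at their bound). Of the 23 listed genes 12 had 0 UMIs in PC, and such a gene could be measured only through MEF. For the measured ones among them the direction follows from the filter. H19 and Igf2 lie side by side on chromosome 7 (142575529 to 142578143 and 142650766 to 142666816, both on the minus strand of GRCm38) and were seen in 94 and 118 of 131 MEF cells, against 0 and 2 of 290 PC cells. Thinned to 1000 UMIs, MEF cells held a median of 3 Igf2 UMIs and up to 43. Dlk1 and Meg3, the Notch-like ligand and the noncoding RNA of the chromosome 12 cluster, were both at 0 UMIs in PC, and at 63.3 and 258 CPM in MEF. Plagl1, a zinc finger factor, was at 141 CPM (116 to 169) in MEF and 1.55 CPM (0.187 to 5.59) in PC, and Grb10, an adaptor that restrains growth signals, at 910.2 CPM (845 to 979) in MEF and 16.2 CPM (10.1 to 24.8) in PC. Igf2r, the receptor that clears IGF2, was 5.1-fold (4.15 to 6.3) higher in MEF. Peg10 (20.3 and 31.7 CPM) and Sgce (70.9 and 125 CPM), which are neighbours on chromosome 6, were the 2 measured members not called. Overlapping antisense transcripts are known at some of these loci, and whether counting used strand is not given in the sources used here.

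The same signal chain was followed through the IGF axis, where 7 of 14 measured genes were higher in MEF and 2 in PC (50% and 14.3%). Igf1 was at 138 CPM (113 to 166) in MEF and 0 UMIs in PC, and the receptors Igf1r (91.1 and 65 CPM in MEF and PC) and Insr (20.3 and 16.2 CPM) were not called. The binding proteins divided: Igfbp2 and Igfbp5 had 0 UMIs in PC and 424 and 282 CPM in MEF, Igfbp7 was 2.51-fold (2.27 to 2.77) higher in MEF, and Igfbp6 was at 11.4 CPM (5.21 to 21.6) in MEF and 119 CPM (101 to 139) in PC, 10.5-fold (5.37 to 23.3) higher in PC. Igfbp4 (294 and 295 CPM) and Igfbp3 (330.4 and 196 CPM) were not called. The protease Pappa, which frees IGF from its binding proteins, had 0 UMIs in PC and 165 CPM in MEF. Igf2 and Igf2r are on both lists.

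Hox genes, which encode position along the body axis and are not used in the forebrain, had UMIs in MEF alone. Of 39 Hox genes 30 had UMIs in MEF, 389 in all, and 0 had any in PC. The 4 clusters contributed 152 (Hoxa), 76 (Hoxb), 88 (Hoxc) and 73 (Hoxd) UMIs. The 11 measured ones were all called, with Hoxa5 at 55.7 CPM (40.5 to 74.8) in MEF and 0 UMIs in PC, Hoxa7, Hoxa10 and Hoxc6 at 31.6, 46.8 and 38 CPM and the posterior gene Hoxd13 at 31.6 CPM in MEF, and the median log2 ratio was 6.27 (3.65 at the bound). With 0 UMIs in PC a Hox gene could be measured only through MEF. These calls and the direction of the median therefore follow from the filter. Against the first PC block alone, whose smaller total raises the level of 3 UMIs, 8 of the 11 were called.

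Transcription factors of mesenchyme and mural cells gave no common direction, 7 of 32 measured being higher in MEF and 10 in PC (21.9% and 31.25%, median -0.16, as over all genes). Higher in PC were the orphan receptors Nr2f1 (22.8 and 391 CPM in MEF and PC) and Nr2f2 (55.7 and 315 CPM), Sox9 (58.2 and 442 CPM), Tcf4 (186 and 734 CPM), Tbx2 (5.06 and 64.2 CPM) and Gata2 (3.8 and 41 CPM). Higher in MEF were the limb and craniofacial factors Prrx2 (197 and 13.1 CPM) and Msx2 (41.8 and 3.09 CPM), Foxp1 (377 and 122 CPM) and Foxp2 (53.2 and 1.55 CPM). General mesenchymal regulators were not called, among them Prrx1 (365 and 350.4 CPM), Zeb1 (59.5 and 72.7 CPM), Zeb2 (93.7 and 74.3 CPM) and Snai1 (35.4 and 41.8 CPM), and Twist1 and Twist2 parted, the first 2.01-fold (1.55 to 2.64) higher in PC and the other 2.54-fold (1.56 to 4.2) higher in MEF.

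Among signalling genes, WNT and BMP members were largely on the MEF side, 20 of 29 measured against 2 in PC (69% and 6.9%, median 1.81). Fstl1 was at 4222 and 621 CPM in MEF and PC, the BMP target Id3 at 1024 and 351 CPM, the WNT amplifier Rspo3 at 98.7 and 0 CPM, the WNT antagonist Sfrp4 at 59.5 and 0 CPM and the activin antagonist Fst at 181 and 4.64 CPM. The BMP ligands were exchanged, since Bmp4 was at 156 CPM (129 to 186) in MEF and 1.55 CPM (0.187 to 5.59) in PC and Bmp2 at 0 UMIs in MEF and 64.2 CPM (51.1 to 79.6) in PC. The other member higher in PC was the WNT antagonist Dkk2 (1.27 and 44.9 CPM). The PDGF, VEGF and FGF list was even, 8 of 21 each way (38.1%, median -0.41). Its receptors differed in opposite directions: Pdgfra was at 8.86 CPM (3.56 to 18.3) in MEF and 88.2 CPM (72.7 to 106) in PC, 9.95-fold (4.68 to 25.3) higher in PC, while Egfr (98.7 and 2.32 CPM), Fgfr2 (69.6 and 0.773 CPM) and Nrp2 (122 and 7.73 CPM) were higher in MEF. Of the ligands, Pdgfc was 22.5-fold (12.5 to 44.4) higher in MEF and Vegfc 3.91-fold (1.51 to 12.9) higher in PC, and Vegfa (81 and 79.7 CPM) was not called. Of 10 retinoid genes 4 (40%) were higher on each side. The retinaldehyde dehydrogenases were exchanged, with Aldh1a1 at 1.27 CPM (0.032 to 7.05) in MEF and 136 CPM (117 to 158) in PC and Aldh1a3 at 21.5 and 0 CPM in MEF and PC, and the retinoid carriers Crabp1 (154 and 3.87 CPM) and Crabp2 (68.4 and 0.773 CPM) were higher in MEF. Stra6, the receptor that takes up retinol from its carrier, was at 0 and 25.5 CPM in MEF and PC. Against the first PC block alone Aldh1a3 was not called and Stra6 not measured.

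Cell cycle genes were higher in PC, 15 of 28 measured (53.6%) against 1 (3.57%) in MEF, with a median of -1.13. The mitotic cyclin Ccnb1 was at 31.6 CPM (20.5 to 46.7) in MEF and 193 CPM (170.1 to 219) in PC, and Ccnb2 at 20.3 and 162 CPM in MEF and PC. Plk1, the mitotic kinase, was 3.82-fold (2.47 to 6.15) higher in PC, Hmgb2, a chromatin protein of dividing cells, was 4.82-fold (2.94 to 8.37) higher, and the replication genes Pcna and Mcm5 were 3.59-fold (2.66 to 4.94) and 3.52-fold (2.55 to 4.94) higher. Mki67 (48.1 and 76.6 CPM in MEF and PC), Top2a (147 and 285 CPM) and Cdk1 (78.5 and 155 CPM) fell short of the call, and cyclin E1 (Ccne1, 69.6 and 34.8 CPM) was the member higher in MEF. With every cell holding an Mki67 or Top2a UMI left out of both libraries the median was -2.38, with 20 of 21 measured members higher in PC. Mki67 and Top2a are themselves on this list, and finding a UMI of them depends on the depth of a cell. The selection itself thus shaped these values, and no conclusion is drawn from them. With those cells left out Aldh1a3, Egr2 and Eif2s3y were no longer measured, and Chac1 was not called. The p53 and senescence list lay on the MEF side, 9 of 20 against 3 (45% and 15%, median 0.80). Cdkn1a (p21) was at 1175 CPM (1100.4 to 1253) in MEF and 339 CPM (308 to 372) in PC, 3.47-fold (3.09 to 3.89) higher in MEF, Cdkn2b (p15) 20.8-fold (10.9 to 44.4), Btg2 32.1-fold (21.3 to 50.5), Plk2 16.5-fold (10.3 to 27.9) and the stress cytokine Gdf15 7.09-fold (2.85 to 21.1). Gdf15 was not called against the first PC block alone, nor without the cells that held Krt19, Krt20 or Msln. The p53 targets Bax and Phlda3 were 3.96-fold (2.91 to 5.48) and 3.78-fold (2.61 to 5.63) higher in PC, and Mdm2 (349 and 281 CPM) and Cdkn2a (29.1 and 16.2 CPM) were not called.

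Genes of lipid synthesis and of antioxidant defence were higher in PC more often than in MEF. Of 23 cholesterol and fatty acid synthesis genes 17 (73.9%) were higher in PC and 0 in MEF (median -1.27). Scd1, the stearoyl-CoA desaturase, was at 59.5 CPM (43.7 to 79.1) in MEF and 345 CPM (314 to 379) in PC, 5.8-fold (4.29 to 8.01) higher, Lss (lanosterol synthase) 4.75-fold (2.9 to 8.25), Nsdhl 5.19-fold (3.33 to 8.49), Fasn (fatty acid synthase) 3.25-fold (2.62 to 4.06) and the regulator Srebf2 2.66-fold (1.9 to 3.79) higher, and Dhcr7, the last enzyme of the pathway, 3.46-fold (1.44 to 10.1). Without the cells that held Krt19, Krt20 or Msln the log2 ratio of Lss went from -2.21 to -0.72 and it was not called, and Dhcr7 was no longer measured, nor was it against the first PC block alone. Hmgcs1, an early enzyme of the pathway, was at 216 and 296 CPM in MEF and PC and was not called. Of 27 antioxidant and metal-binding genes 9 (33.3%) were higher in PC and 1 (3.7%) in MEF (median -0.69). Fth1, the ferritin heavy chain, was at 1857 CPM (1763 to 1955) in MEF and 7701 CPM (7551 to 7854) in PC, 4.15-fold (3.93 to 4.38) higher in PC, whereas Ftl1, the light chain of the same shell, was at 1568 CPM (1482 to 1658) in MEF and 510.5 CPM (472 to 551) in PC, 3.07-fold (2.79 to 3.38) higher in MEF. Ftl1 has near-identical pseudogenes, so its reads are uncertain. The metallothioneins Mt1 and Mt2 were 2.5-fold (2.23 to 2.82) and 3.92-fold (3.21 to 4.82) higher in PC, and Mt2 stood at 1389 and 438 CPM in the blocks. Gclc, of glutathione synthesis, was 4.44-fold (3.14 to 6.45) and the glutathione transferase Gstm1 3.96-fold (2.89 to 5.55) higher in PC, the latter not against the first block alone. Of 19 glycolysis and hypoxia genes 3 were higher in MEF and 4 in PC (median 0.03), 15.8% and 21.1% against the background of 15.9% and 20.5%, so the list did not stand apart. The glucose transporter Slc2a3 was at 13.9 and 63.4 CPM in MEF and PC, adrenomedullin (Adm) at 36.7 and 91.3 CPM, and the glycolytic Eno1 at 451 and 145 CPM and Pgk1 at 133 and 37.1 CPM. The log2 ratio of Adm was -1.30, and it fell short of the call at -0.91 against the second block alone and -0.71 without cells that held Krt19, Krt20 or Msln. Secretory endoplasmic reticulum genes were 6 toward MEF and 2 toward PC of 24 (25% and 8.33%, median 0.40). The former included the stress genes Ddit3 (50.6 and 12.4 CPM), Trib3 (43 and 3.09 CPM) and Chac1 (41.8 and 8.51 CPM). The retention receptor Kdelr3 was at 206 and 23.2 CPM. Against the first block alone Trib3 and Chac1 were not called.

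Annexins and S100 proteins, which bind calcium and membranes, were higher in PC for 9 of 18 measured members (50%) and in MEF for 1 (5.56%), with a median of -0.97. S100a4 was at 83.5 CPM (64.6 to 106) in MEF and 2323 CPM (2241 to 2408) in PC, 27.8-fold (21.8 to 36.1) higher in PC. It differed within the library, at 657 CPM in the first block and 2559 CPM in the second, both above MEF. S100a16 was 8.07-fold (5.49 to 12.3), galectin 3 (Lgals3) 8.4-fold (5.99 to 12.1), annexin A4 (Anxa4) 3.71-fold (2.67 to 5.27) and annexin A1 (Anxa1) 2.96-fold (2.72 to 3.22) higher in PC, and without the 4 MEF cells with macrophage markers the log2 ratio of Lgals3 went from -3.05 to -3.73. Galectin 1 (Lgals1, 4762 and 4908 CPM) and annexin A5 (Anxa5, 2008 and 1918 CPM) were nearly equal in the libraries.

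**Figure D4:**
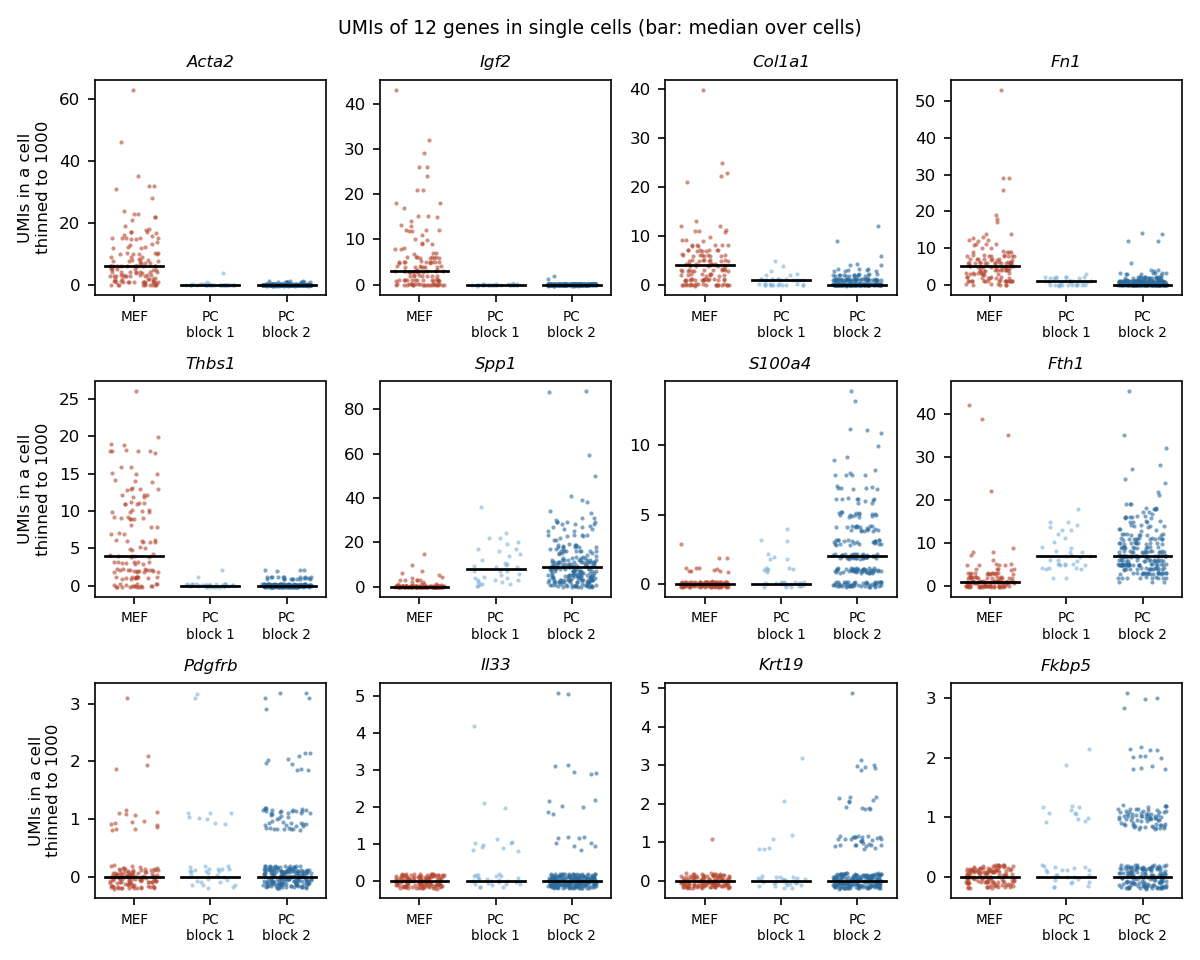
UMIs of 12 genes in each cell after thinning to 1000 UMIs, for 129 MEF cells and the 267 PC cells split by barcode block, with a bar at the median over cells and points shifted at random by up to 0.2 UMIs and sideways. Most MEF cells hold Acta2, Igf2, Fn1 and Thbs1 and most PC cells Spp1 and Fth1, whereas Krt19, Il33 and Fkbp5 are at 0 in many PC cells at this depth.

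Surface adhesion genes divided almost evenly, 10 of 31 higher in MEF and 12 in PC (32.3% and 38.7%, median -0.26). The collagen-binding integrins Itga1 and Itga11 had 0 UMIs in PC and 45.6 and 219 CPM in MEF, and Cdh11, the mesenchymal cadherin, was at 718 CPM (659.9 to 779) in MEF and 47.2 CPM (36.1 to 60.6) in PC. Thy1, a fibroblast surface antigen, was at 413 CPM (369 to 460.0) in MEF and 34.8 CPM (25.4 to 46.6) in PC, 11.9-fold (8.66 to 16.6) higher in MEF. The laminin-binding chains Itga3 (7.6 and 62.7 CPM in MEF and PC) and Itga6 (36.7 and 254 CPM), the fibronectin receptor chain Itga5 (12.7 and 85.9 CPM), Cdh2 (20.3 and 99.8 CPM) and Cdh13 (12.7 and 136 CPM) were higher in PC, and podocalyxin (Podxl) was at 0 UMIs in MEF and 61.1 CPM (48.4 to 76.2) in PC. P-cadherin (Cdh3) had 0 UMIs in PC and 58.2 CPM in MEF. The shared beta chain Itgb1 (1758 and 1011 CPM) and the hyaluronan receptor Cd44 (354 and 601 CPM) were not called. Glypicans, syndecans and related genes were higher in MEF for 7 of 13 measured and in PC for 0 (53.8% and 0%, median 1.13). Gpc3 had 0 UMIs in PC and 161 CPM in MEF, and Gpc4 (435 and 69.6 CPM in MEF and PC), Sdc3 (36.7 and 3.09 CPM) and the sulfatase Sulf1 (118 and 2.32 CPM) followed. Prostaglandin enzymes were exchanged: Ptgs1 was at 2.53 CPM (0.307 to 9.15) in MEF and 288 CPM (259 to 319) in PC, whereas Ptgs2 was at 220.3 CPM (189 to 256) in MEF and 56.5 CPM (44.3 to 71) in PC and the prostacyclin synthase Ptgis at 68.4 CPM (51.4 to 89.2) in MEF and 0 UMIs in PC. Apoe was at 110.1 CPM (88.2 to 136) in MEF and 1.55 CPM (0.187 to 5.59) in PC, but without the 4 MEF cells with macrophage markers it was no longer measured, its log2 ratio going from 5.84 to 2.66. Apod, another lipid carrier, was at 2.53 and 42.5 CPM in MEF and PC, and at 169 and 24.7 CPM in the first and second PC block. With cells thinned to 1000 UMIs Apod was not called. Among 15 channels and transporters 5 (33.3%) were higher on each side, with the mechanosensitive channel Piezo2 10.8-fold (5.52 to 23.6) higher in MEF, the calcium channel Cacna1g at 27.8 and 0 CPM in MEF and PC, the lactate carrier Slc16a1 at 16.5 and 105 CPM, and the water channel Aqp1 9.6-fold (4.51 to 24.4) higher in PC. Aqp1 was not measured against the first PC block alone.

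Cytokine and chemokine genes differed member by member, 8 of 15 measured being higher in MEF and 3 in PC (53.3% and 20%, median 1.79, or -0.17 over 9 members after thinning). Cxcl12, the ligand of CXCR4, was at 1414 CPM (1332 to 1499) in MEF and 199 CPM (175 to 225) in PC, 7.11-fold (6.21 to 8.18) higher in MEF, Cxcl14 was at 171 CPM (143 to 202) in MEF and 0 UMIs in PC, and the CXCL12 scavenger Ackr3 and the decoy receptor Tnfrsf11b were at 86.1 and 0.773 CPM and 113 and 0 CPM in MEF and PC. Csf1, the macrophage growth factor, was at 123 CPM (99.6 to 149.8) in MEF and 779 CPM (732 to 829) in PC, 6.34-fold (5.15 to 7.9) higher in PC, and Ccl2 was 3.06-fold (2.37 to 4.01) higher. Il33 had 0 UMIs in MEF, while Il1rl1, its receptor, was at 20.3 and 0.773 CPM in MEF and PC. Immediate early and heat shock genes were higher in MEF for 13 of 25 and in PC for 3 (52% and 12%, median 1.18). Fos was at 668 CPM (613 to 728) in MEF and 18.6 CPM (11.9 to 27.6) in PC, and the PC level was 106 and 6.18 CPM by block. Fosb, Atf3 and Egr2 were at 148 and 2.32 CPM, 114 and 0 CPM and 29.1 and 0 CPM in MEF and PC. Their relative Fosl1 went against them, at 8.86 CPM (3.56 to 18.3) in MEF and 347 CPM (316 to 381) in PC, 39.2-fold (18.9 to 98) higher in PC.

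The interferon and antigen presentation list depended on the PC block. Over the whole PC library 5 of 15 measured (33.3%) were higher in PC and 1 (6.67%) in MEF (median -0.57). Against the first block 13 of 15 were higher in PC and 0 in MEF (median -1.63), and against the second 3 of 13 and 2 (median -0.11). Bst2 (tetherin) was at 16.5 CPM in MEF, 932 CPM (789 to 1095) in the first block and 43.2 CPM (32 to 57.2) in the second. Oasl2 was at 2.53 CPM in MEF, 144 CPM (91.2 to 216) in the first block and 4.41 CPM (1.43 to 10.3) in the second, and Rtp4 at 1.27 CPM in MEF, 119 CPM (71.6 to 186) in the first block and 7.94 CPM (3.63 to 15.1) in the second. Ifitm3, an antiviral membrane protein, was called higher in MEF over the whole library, by 2.95-fold (2.53 to 3.44), but stood at 606 CPM in MEF, 657 CPM (537 to 795) in the first block and 142 CPM (121 to 166) in the second, so that against the first block its log2 ratio was -0.12. B2m, the class I light chain, was at 1284 CPM in MEF, 3479 CPM (3196 to 3781) in the first block and 1677 CPM (1602 to 1754) in the second, and H2-K1 at 39.2 CPM in MEF, 225 CPM (158 to 312) in the first block and 94.4 CPM (77.4 to 114) in the second. Oasl2 and Rtp4 were not measured against the second block. The levels above MEF were thus mainly those of the 39 cells of the first block.

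**Figure D5:**
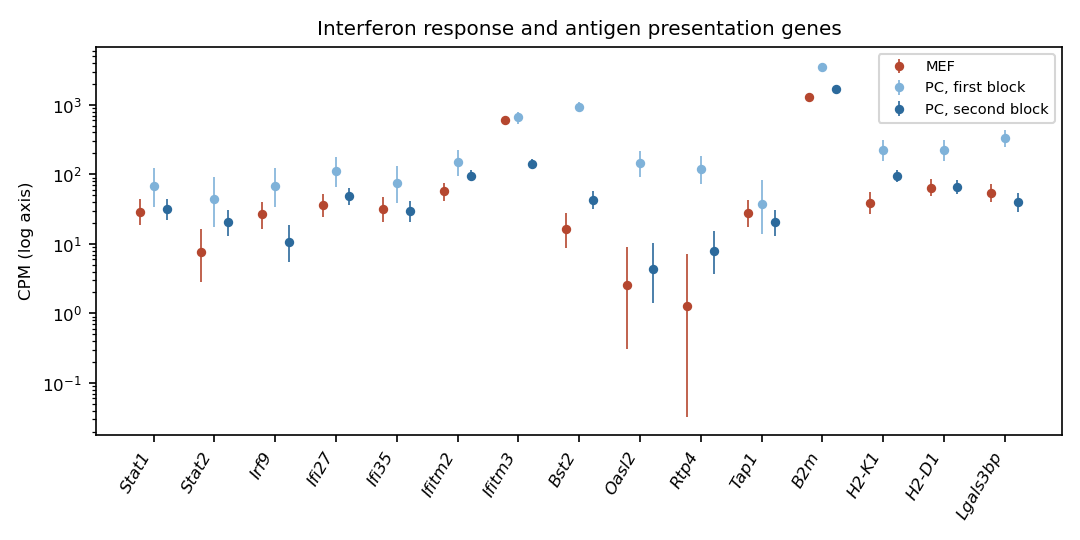
Level in CPM, on a log axis with exact Poisson 95% intervals, of 15 interferon response and antigen presentation genes in MEF and in the first (39 cells) and second (251 cells) barcode block of PC. Bst2, Oasl2, Rtp4 and Lgals3bp are higher in the first block than in MEF and in the second block.

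Epithelial and mesothelial markers appeared in PC, though not as a full set. Of 20 markers 3 were measured, all called higher in PC: Krt19 at 7.6 CPM (2.79 to 16.5) in MEF and 317 CPM (287 to 349) in PC, Krt20 at 1.27 CPM (0.032 to 7.05) in MEF and 149 CPM (129 to 172) in PC and Msln at 0 UMIs in MEF and 135 CPM (115 to 156) in PC. All 3 lay below the measured level in MEF and were measured through PC alone. That they share a direction therefore follows largely from the filter. The simple-epithelial keratins Krt8 and Krt18, and Epcam, Cdh1, Wt1 and Upk3b, had no row in either file. A UMI of Krt19, Krt20 or Msln was found in 195 of 290 PC cells (67.2%) and 6 of 131 MEF cells, at all depths, and PC cells with one had a median of 4706 UMIs against 2035 for those without. PC cells with and without such a UMI had 305 and 492 CPM of Pdgfrb, 10602 and 13859.5 of Spp1, 2255 and 2586 of S100a4 and 381 and 309 of Il33. Whether the cells differ in kind or only in depth was not tested.

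The 4 MEF cells with macrophage markers had 192 CPM of Acta2 and 0 UMIs of Col1a1. Col2a1, the cartilage collagen, was at 315 CPM (277 to 357) in MEF and 6.96 CPM (3.18 to 13.2) in PC, while Acan and Matn1 had no row in either file. Of the 4 measured cartilage and bone markers it was the member higher in MEF, and Sox9 and Sox5 (5.06 and 29.4 CPM in MEF and PC) were higher in PC (median -1.52). Sox10, of neural crest and glia, had 10 UMIs in MEF, below the measured level, and 0 in PC. Sex-linked genes differed too: Y-linked Ddx3y and Eif2s3y were at 89.9 and 20.3 CPM in MEF and 0 UMIs in PC, with the X-linked partner Eif2s3x at 11.4 and 50.3 CPM and Kdm5c at 40.5 and 72.7 CPM in MEF and PC. Kdm5c was not called over the whole library but was called higher in PC against the first block alone, and Eif2s3y was not called against it. A UMI of a Y-linked gene was found in 45 of 131 MEF cells and 0 of 290 PC cells, and of Xist, the RNA of the inactive X, in 1 and 20. Xist overlaps its antisense gene Tsix. Y-linked and Xist UMIs thus moved with the group, and their part in the other differences cannot be told apart from that of tissue.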

How the data were processed

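Polyadenylated RNA was counted in single cells of 7 libraries with the ddSEQ 3′ kit, and MEF and PC are compared here. Per the submitters' processing notes the tools were bcl2fastq 2.19.1.403, STAR 2.5.3a, featureCounts 1.6.1 and UMI-tools 0.5.3, and the build mm10; how they were set is not given in the sources used here. The deposited matrices hold other numbers than UMI counts: per value, the place of the count in the text-sorted list of counts that occur, separately for each block of barcodes. Whether the authors meant this is not known. The test design had assumed counts, and counts were therefore decoded first, 95.8% of UMIs in MEF and 96% and 97.9% in the PC blocks being certain at a posterior of 0.99. Decoding and calls were also run on simulated counts that had been coded by the same rule, with PC not split into blocks. Such a check cannot tell whether the deposited values follow that rule.

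Barcodes with 500 or more UMIs were kept (131 of 131 in MEF, 290 of 296 in PC), no doublet caller was run, and UMIs were summed per library with Python 3.11.15, numpy 2.4.6, scipy 1.17.1, pandas 2.3.3 and matplotlib 3.10.9. Log2 ratios add 0.5 UMIs to each count. Thinned cells were drawn once to 1000 UMIs. Named are the 15 highest ratios each way among genes at 100 CPM and 30 UMIs or more, leaving out mitochondrial, ribosomal protein, Gm and Rik genes, in each list the 4 members that differed most, and the donor-cell markers; other members were named after their values were seen. Some genes that this rule names are not reported here. The members and lists were chosen with earlier results of these data known. Alternatives were other UMI minimums, TMM scaling, equal weight per cell, totals without mitochondrial and ribosomal protein genes, other CPM minimums, expected counts from the decoding, each PC block, thinning, and leaving out cells with Krt19, Krt20 or Msln, with Mki67 or Top2a, or, chosen after seeing the data, with macrophage markers.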

Additional observations from a re-analysis of the deposited data

How the results depend on the processing

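Counts of genes followed the filter and the depth. The count of genes higher in MEF (1292) was 387 at a minimum of 100 CPM and 552 with cells thinned to 1000 UMIs, and that of genes higher in PC (1663) was 577 and 932. Large differences toward MEF (603) numbered 174 and 213 under the same alternatives and 334 against the first PC block alone, and those toward PC (455) numbered 149 and 184. Fewer genes pass a higher minimum or a smaller total by construction. The other alternatives stayed within 1.5 times of each count, at 1049 to 1561, 1120 to 1918, 429 to 736 and 360 to 512. Of 2016 values for 144 named genes under 14 alternatives, 1828 stayed within counting error and 187 moved beyond it without a called value changing sign, 76 of these against the first PC block, and 112 genes had at least 1 value that moved or changed sign. This tally is in part fixed in advance. The other CPM minimums change only which genes are measured, so all 144 values under each stayed by construction. A gene at 0 UMIs in PC has no upper bound and could move only downward. Called Ifitm3 changed sign, at -0.12 on the log2 scale against the first PC block, as did uncalled Cspg4, from 0.69 to -0.10, and 142 of the 144 kept their sign throughout. Calls were kept less often than signs. Of 140 named genes with a call, 104 had the same call with thinned cells, 95 at a minimum of 100 CPM and 129 against the first PC block. The medians of 23 of 30 lists kept their sign under every one of the 14 alternatives that gave a value. That of chemokines, cytokines and complement (1.79) was -0.17 with thinned cells. That of retinoid handling (-0.21) was 4.0 at a minimum of 100 CPM, 2.82 against the first PC block, 1.95 without cells that held Krt19, Krt20 or Msln, 0.17 with thinned cells and 0.02 with no CPM minimum. That of the PDGF, VEGF and FGF axes (-0.41) was 0.44 against the first block and 0.37 without the keratin or Msln cells. Transcription factors, glycolysis, channels and sex-linked genes, all within 0.2 of 0 over the whole libraries, also changed sign. The cause was not tested. TMM scaling shifted the median of all genes by 0.07. No paired analysis was possible because each group is 1 library. Depth limits absence: 3 UMIs correspond to 3.8 CPM in MEF and 2.32 CPM in PC, and the spread between cultures is not known from 1 library a group.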

Other observations

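A gene group chosen after its values were seen stood on the PC side. Of 13 measured genes known to be induced by glucocorticoids, 8 were called higher in PC and 1 in MEF (median log2 ratio -1.88), against 20.5% and 15.9% of all measured genes. Fkbp5 was at 7.6 CPM (2.79 to 16.5) in MEF and 426 CPM (391 to 463) in PC, Sgk1 (a serum- and glucocorticoid-regulated kinase) at 97.5 CPM (76.9 to 122) in MEF and 986 CPM (933 to 1042) in PC, Tsc22d3 (the leucine zipper GILZ) at 22.8 CPM (13.5 to 36) in MEF and 369.7 CPM (337 to 404) in PC, and Glul (glutamine synthetase) at 15.2 CPM (7.85 to 26.5) in MEF and 197 CPM (174 to 223) in PC. Zbtb16 had 0 UMIs in MEF and 22.4 CPM in PC. Dusp1, which growth signals also induce, went the other way, at 285 CPM (249 to 325) in MEF and 65 CPM (51.8 to 80.4) in PC. In cells thinned to 1000 UMIs the list held a median of 0 UMIs in MEF and 3 in PC.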
